A study of Gallus gallus with 20 samples.

Results

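Liver RNA of Ogye chickens aged 10 weeks was compared with liver RNA of Cornish chickens aged 5 weeks. The members are the 5 libraries that the labels name Ogye, 10 weeks, and the 5 that they name Cornish, 5 weeks, which makes 10 of the 20 libraries of the series, and the genes are the 13956 of 54062 entries in the count table that carry a gene symbol. Ogye is a Korean breed known for its dark skin, and Cornish is a heavy breed used in meat production. The series was set up to ask how the livers of these breeds differ as their body weights diverge. No treatment or allele is given for any group, and all libraries are total RNA of liver depleted of ribosomal and globin RNA. The compared groups differ in breed and in age at once, so the comparison taken alone cannot tell breed and age apart. Sex is not in the labels, and nor is a bird for each library, so p-values measure the spread between these libraries, which may be technical.

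The liver sits at the centre of the growth axis. Pituitary growth hormone binds its receptor GHR on hepatocytes and acts through the kinase JAK2 and STAT factors to induce IGF1, while SOCS proteins dampen this signal and IGF binding proteins carry the hormone in blood. The same cells secrete most plasma proteins. During an acute phase response, cytokines that signal through STAT3 raise fibrinogen, serum amyloid A, ceruloplasmin and complement factors, while albumin and transthyretin are known in mammals to fall. Heterophils are the avian counterparts of neutrophils and reach the liver with the blood.

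Library totals were 15281000 to 19822433 counts in the Ogye 10-week group and 22235428 to 31848768 in the Cornish 5-week group. Counts on named genes ran from 10639849 to 13552355 and from 15030973 to 21106844, without overlap (exact two-sided permutation test, p = 0.007937, the smallest that 5 against 5 libraries allow; adjusted p = 0.0159 over 6 library measures). With every library thinned to the same depth, 1285 genes were called in the comparison described next, 1229 of them among its 1410. The 10 most abundant genes held 33.5% to 46.6% of named counts in the Ogye libraries and 25.8% to 32.7% in the Cornish libraries (exact permutation p = 0.007937). The 22 hepatocyte markers summed to 284200 to 386900 CPM (counts per 1000000 counts on named genes) in the former and 153600 to 257600 in the latter, and none of them was at 0 in a whole group. This sum includes the abundant plasma protein genes FGA, FGB, FGG and TF, which are described below. The median log2 difference of the 22 markers was −0.016, and 11 of them were positive. Of 32 markers of muscle, fat, pancreas and gut, 11 were at 0 in all Ogye 10-week libraries and 8 in all Cornish 5-week libraries, INS and PRSS2 among them. The other markers had counts in at least 1 library of the group, and 8 had enough counts to be tested. Together the 32 summed to 318.5 to 464.3 CPM in the Ogye libraries and 261.2 to 751.8 CPM in the Cornish libraries. In a principal component plot the Cornish libraries lay between −30.0 and −24.0 on the first component, which held 40.4% of the variance, and the Ogye libraries between −2.21 and 69.0, with replicate 2 farthest out. Cornish replicate 1 stood apart on the second component at 59.0, where the other 9 libraries reached at most 11.9. Some results led by these libraries are also given without them, but not all.

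Of 10410 genes with enough counts to be tested, 1410 (13.5%) passed edgeR's quasi-likelihood test at a Benjamini-Hochberg adjusted p under 0.05, and "called" below means this threshold. In the Ogye 10-week libraries 707 genes (6.79%) were higher and 703 (6.75%) were lower. When assembled transcripts entered the scaling, the split was 519 higher and 992 lower. A log2 difference of at least 1 was found for 404 of the called genes (3.88% of those tested). The 2 sets of 5 libraries did not overlap for 1420 genes (13.6%). The count of 1410 called genes fell to 917, 798 and 756 without Cornish replicate 2, 3 or 4, and to 801 and 834 without Ogye replicate 1 or 3. With the summed level of W chromosome genes as a covariate, which itself was higher in the Ogye group (log2 CPM 5.51 to 5.71 against 5.24 to 5.60, exact permutation p = 0.0159), 439 genes were called. Only 253 of these were among the 1410, so 17.9% of the main calls were kept. Of the genes described below, IGFBP2, GHR, CP and FGB kept their call in this fit, while MT4, TF, AvBD7, F13A1 and VWF lost it. W-linked transcripts were present in all 10 libraries.

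Gene lists for growth, metabolism, defence and cell types gave a picture that differed from list to list. The lists with the largest share of their tested members called were the heterophil markers, the acute phase genes and the metal-binding genes on the higher side, and the nuclear respiratory chain and cytosolic ribosomal proteins on the lower side. The median log2 difference of all tested genes was −0.03.

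**Figure D1:**
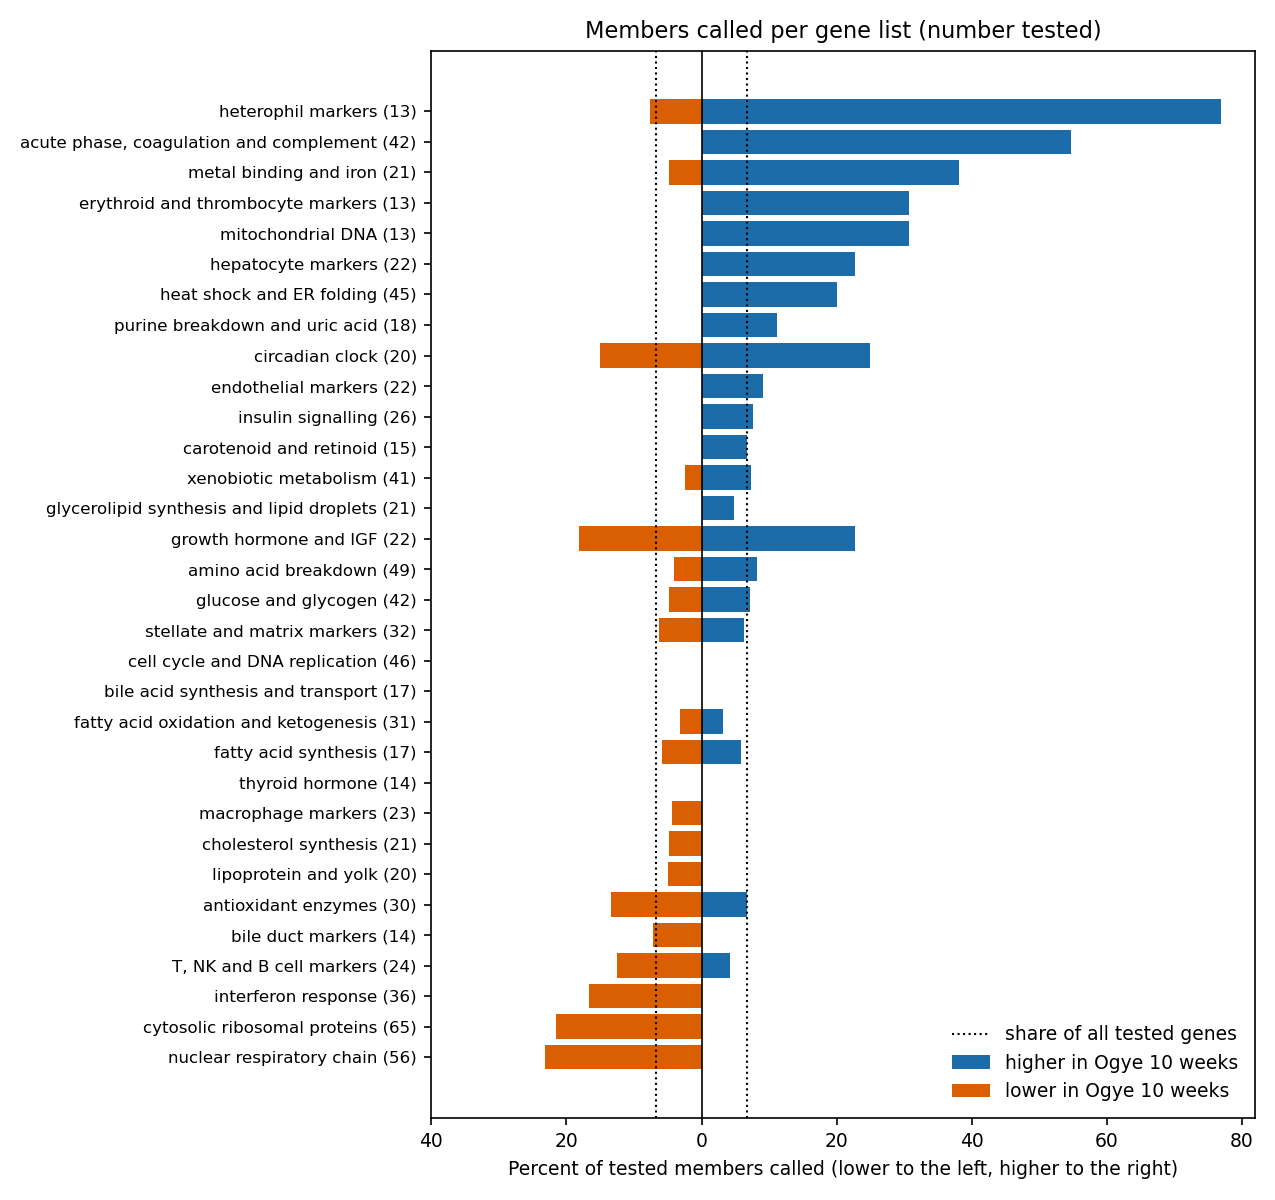
Percent of the tested members of each gene list that were called higher (blue, to the right) or lower (orange, to the left) in Ogye 10-week than in Cornish 5-week liver, with the number tested in brackets and dotted lines at the shares of all tested genes, 6.79% and 6.75%. Heterophil markers reach 76.9% higher, and the nuclear respiratory chain reaches 23.2% lower. Lists with under 10 tested members are not drawn.

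Growth axis genes moved in both directions. Of 22 tested genes of growth hormone and IGF signalling, 5 were higher (22.7%) and 4 lower (18.2%), beside 6.79% and 6.75% of all tested genes. The median was −0.26, and the lower count was 7 without Ogye replicate 2. IGFBP2, a carrier of IGF1 and IGF2 in blood, was at 2.39, 0.998, 0.809, 1.21 and 0.996 CPM in Ogye replicates 1 to 5 and at 13.3, 19.7, 15.2, 20 and 15.6 CPM in Cornish replicates 1 to 5. Every Ogye library lay below every Cornish library, and the difference was −3.69 ± 0.27 (log2, SE, n = 5 against 5; adjusted p = 8.64e-05), a 12.9-fold lower level. The gene lies on chromosome 7 of GRCg7b, from 22879236 to 22951723. GHR, the growth hormone receptor, was at 1111, 770, 773, 902 and 1170 CPM in the Ogye libraries and at 351, 368, 401, 355 and 317 CPM in the Cornish libraries. It was 2.64-fold higher with no overlap (log2 1.40 ± 0.16, adjusted p = 0.0016).

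SOCS2, which limits growth hormone signalling and is itself induced by it, was at 5.53, 3.77, 4.71, 7.14 and 9.60 CPM in Ogye libraries and at 18.8, 25.5, 18.2, 14.5 and 14.2 CPM in Cornish libraries. The groups did not overlap and the Ogye level was 2.95-fold lower (log2 −1.56 ± 0.25, adjusted p = 0.00574). IGF1, the hepatic hormone that carries the signal to muscle and bone, was at 13.9, 15.2, 7.21, 9.66 and 3.08 CPM against 16.5, 26.9, 22.5, 21.8 and 27.7 CPM. It was lower by a narrow margin (log2 −1.23 ± 0.34, adjusted p = 0.0368), and the call was lost without any 1 of Cornish replicates 2, 3, 4 and 5 or Ogye replicates 3 and 4, with log2 values of −1.44 to −1.0 over all libraries left out in turn. IGF2 overlapped between the groups, at 38.4 to 82.5 CPM against 34.8 to 102 CPM (log2 −0.34 ± 0.32, adjusted p = 0.496). IGF2BP3, an RNA-binding protein of growing tissue that binds IGF2 mRNA, was 3.62-fold lower (log2 −1.85 ± 0.29, adjusted p = 0.00541), at 2.50 to 4.10 against 6.17 to 19.6 CPM.

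STAT3, the factor shared with cytokine signals, was at 345 to 485 CPM in the Ogye group and at 219 to 270 CPM in the Cornish group, 1.59-fold higher (log2 0.66 ± 0.13, adjusted p = 0.0118). SOCS3, a feedback inhibitor of STAT3 signalling, was at 17.7, 60.2, 29.4, 7.14 and 34.6 CPM against 4.09, 5.43, 5.85, 10.4 and 4.79 CPM. Ogye replicate 4 fell inside the Cornish range, and the gene was called higher (log2 2.29 ± 0.48, adjusted p = 0.0139).

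The remaining Cornish 10-week libraries let the comparison be split into an age difference in Cornish (10 minus 5 weeks) and a breed difference at 10 weeks (Ogye minus Cornish). Both come from 1 fit of 15 libraries. They share the Cornish 10-week libraries with each other and 1 group each with the comparison described here. By construction they add up to the Ogye 10-week minus Cornish 5-week difference of the 15-library fit. The differences of the comparison itself come from the fit of 10 libraries, so the sums can deviate slightly. The former called 2052 genes (19.4%) and the latter 1703 (16.1%) of 10553. For IGFBP2 the age difference was −0.35 (adjusted p = 0.468) and the breed difference was −3.33 (adjusted p = 0.000345). SOCS2 gave 0.23 (adjusted p = 0.62) and −1.78 (adjusted p = 0.00309), and IGF1 gave 0.28 (adjusted p = 0.501) and −1.50 (adjusted p = 0.00509). GHR gave 0.81 (adjusted p = 0.00319) and 0.61 (adjusted p = 0.0142), so both parts passed the test. IGF2BP3 gave −1.64 (adjusted p = 0.00175) for age and −0.20 (adjusted p = 0.671) for breed. For SOCS3 the age difference was 2.41 (adjusted p = 0.0136) and the breed difference was −0.12 (adjusted p = 0.907). These parts, here and below, follow the path through Cornish at 10 weeks. The path through Ogye at 5 weeks was not computed, and mean levels show that its parts can differ. IGFBP2 averaged 26.65 CPM in Ogye 5-week, 1.28 in Ogye 10-week and 16.75 in Cornish 5-week libraries, and SOCS2 30.6, 6.15 and 18.2 CPM. In the same order IGF1 averaged 22.6, 9.82 and 23.05 CPM, and SOCS3 28.2, 29.8 and 6.10 CPM.

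**Figure D2:**
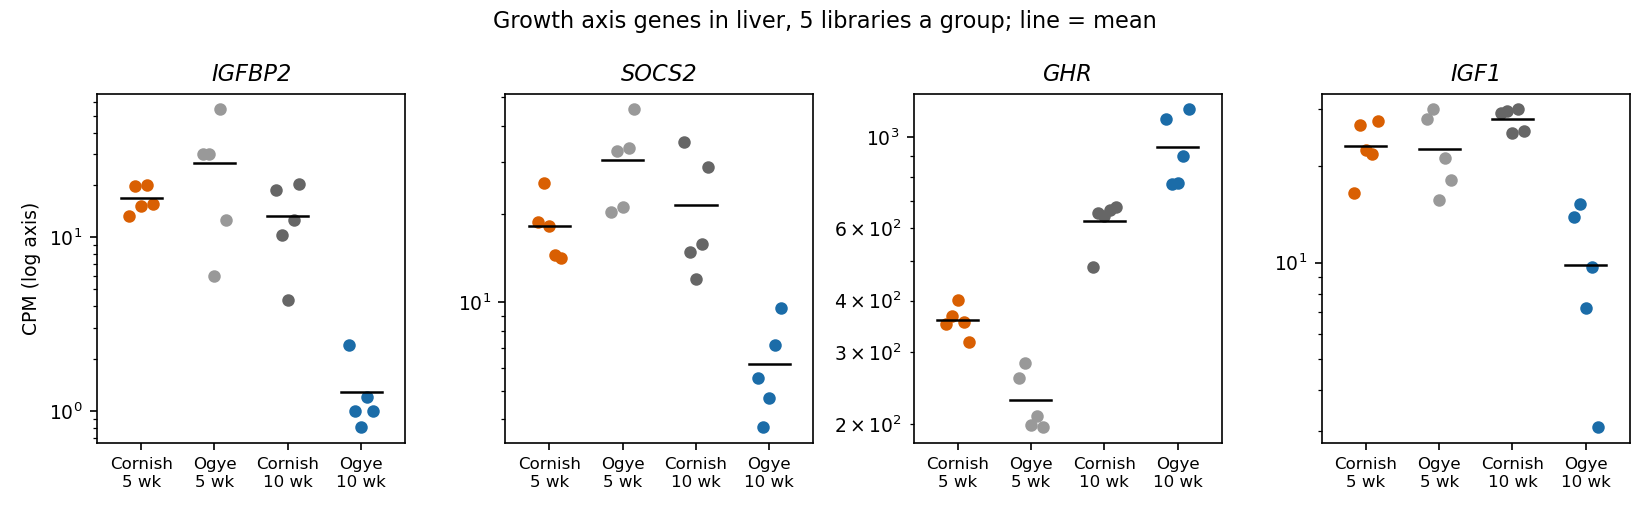
Level of IGFBP2, SOCS2, GHR and IGF1 in CPM on log axes, 1 dot a library in the 4 groups of the series, with a line at the mean. The 5 Ogye 10-week libraries of IGFBP2 lie at 0.809 to 2.39 CPM, and the Cornish 5-week libraries at 13.3 to 20 CPM. GHR runs the other way.

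Among acute phase, coagulation and complement genes, 23 of 42 tested (54.8%) were called higher and none lower, beside 6.79% and 6.75% of all tested genes. The median was 0.73, and 37 had a positive difference. DESeq2 and limma-voom called 27 and 26 higher and none lower. By edgeR the higher count was 19 to 24 with 1 library left out. None of the 1410 called genes of the comparison changed sign where it was tested again under 23 other settings. FGB, the fibrinogen beta chain, was at 33892, 77575, 49306, 22112 and 17308 CPM in the Ogye libraries and at 4811, 8292, 7025, 7428 and 8816 CPM in the Cornish libraries. The lowest Ogye library lay above the highest Cornish library, a 5.54-fold difference (log2 2.47 ± 0.41, adjusted p = 0.00653). FGA and FGG, which encode the other chains and lie beside FGB on chromosome 4, were 5.81-fold and 5.93-fold higher (adjusted p = 0.00643 and 0.00585). Fibrinogen forms the clot, and its 3 genes had log2 age differences in Cornish of 1.24 to 1.37 and breed differences at 10 weeks of 1.18 to 1.34, all called.

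SAA, serum amyloid A, was at 3668, 26711, 10306, 385 and 561 CPM in Ogye replicates 1 to 5 and at 75.5, 519, 504, 129 and 148 CPM in the Cornish libraries. Ogye replicates 1, 2, 3 and 5 lay above every Cornish library, replicate 5 only just, and replicate 4 fell inside the Cornish range. The log2 difference was 4.93 ± 1.19 (adjusted p = 0.0225), it was 3.77 without Ogye replicate 2, and the call was lost without Cornish replicate 4 or 5. ORM1, an orosomucoid of plasma, was at 6798, 11201, 12088, 3243 and 3225 CPM against 723 to 2009 CPM, 6.43-fold higher (log2 2.68 ± 0.47, adjusted p = 0.00713). The ORM1 difference was 1.74 with age in Cornish (adjusted p = 0.011) and 0.95 between breeds at 10 weeks (adjusted p = 0.116). ORM1 averaged 5933 CPM in Ogye 5-week, 7311 in Ogye 10-week and 1146 in Cornish 5-week libraries, so the path through Ogye at 5 weeks looks different.

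Complement genes ranged less widely between libraries. C8A, a chain of the membrane attack complex, was at 1571, 2405, 1749, 1241 and 994 CPM against 428, 530, 383, 366 and 470 CPM (log2 1.88 ± 0.24, adjusted p = 0.00285). C5, which starts that complex, was 3.13-fold higher (log2 1.65 ± 0.24, adjusted p = 0.00482), and C3, the central component, was 1.9-fold higher (log2 0.92 ± 0.18, adjusted p = 0.0116). C8B, a second chain, was at 1150 to 1676 against 515 to 726 CPM (log2 1.13 ± 0.16, adjusted p = 0.00415). For C8B the age difference in Cornish was 1.24 (adjusted p = 0.000388) and the breed difference at 10 weeks −0.09 (adjusted p = 0.725). Its means were 1069 CPM in Ogye 5-week, 1341 in Ogye 10-week and 614 in Cornish 5-week libraries. HPX, the haem carrier hemopexin, was at 12318 to 27245 against 3468 to 6585 CPM (log2 1.75 ± 0.29, adjusted p = 0.00659).

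Albumin missed the threshold. ALB was at 114435, 48275, 48420, 209244 and 161527 CPM in Ogye replicates 1 to 5 and at 94690, 163941, 170391, 170035 and 140699 CPM in the Cornish libraries (log2 −0.34 ± 0.43, adjusted p = 0.612). Its lowest values were in Ogye replicates 2 and 3, the libraries with the highest fibrinogen, SAA and CP. Its share of named counts was 4.09% to 19.1% against 12.9% to 18.7% (exact permutation p = 0.0952). AHSG, the plasma protein fetuin-A, was at 2822, 170, 1323, 7685 and 4531 CPM against 5452 to 9253 CPM (log2 −1.18 ± 0.69, adjusted p = 0.263). TTR, the transthyretin that carries thyroid hormone, was at 2279, 269, 880, 4361 and 2978 CPM against 5818 to 7033 CPM. The 2 groups of TTR values did not overlap, yet the gene missed the threshold (log2 −1.58 ± 0.56, adjusted p = 0.0836). It passed without Ogye replicate 2 or 4, with DESeq2 and limma-voom, and in fits of 15, 17 and 20 libraries. Ogye replicate 2 held the lowest value of ALB, AHSG and TTR and the highest of FGA, FGB, FGG and SAA. For SAA and AHSG the Ogye libraries differed among themselves over a wider range than the difference between the groups.

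**Figure D3:**
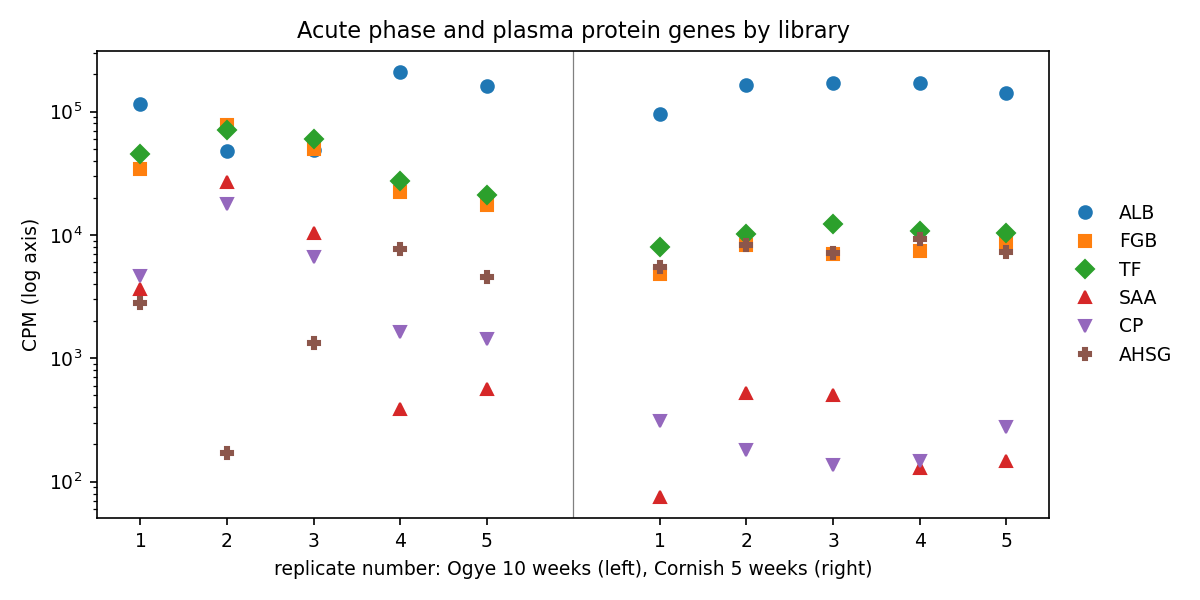
Level of ALB, FGB, TF, SAA, CP and AHSG in CPM on a log axis, for the 5 Ogye 10-week libraries on the left and the 5 Cornish 5-week libraries on the right. Ogye replicate 2 has FGB at 77575 CPM and ALB at 48275 CPM, while replicate 4 has FGB at 22112 CPM and ALB at 209244 CPM.

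Among genes that carry copper, iron and zinc, 8 of 21 tested were higher (38.1%), 1 was lower (4.76%) and 12 were not called. Of all tested genes 6.79% were higher and 6.75% lower. HPX, which belongs to both lists, is counted here again. CP, ceruloplasmin, the copper-carrying ferroxidase of plasma, was at 4659, 17879, 6563, 1631 and 1442 CPM in the Ogye libraries and at 312, 181, 136, 146 and 278 CPM in the Cornish libraries. The lowest Ogye value was well above the highest Cornish value, and the log2 difference of 4.94 ± 0.73 (adjusted p = 0.00482) was 4.08 without Ogye replicate 2. CP rose with age in Cornish by 2.04 (adjusted p = 0.0295) and was higher in Ogye at 10 weeks by 2.91 (adjusted p = 0.00801). TF, the iron carrier transferrin, was at 45522, 70746, 59878, 27454 and 21029 CPM against 7970, 10247, 12306, 10668 and 10329 CPM. It was 4.38-fold higher (log2 2.13 ± 0.35, adjusted p = 0.00585), with 0.51 for age (adjusted p = 0.253) and 1.63 for breed (adjusted p = 0.00472). TF averaged 15750 CPM in Ogye 5-week, 44930 in Ogye 10-week and 10300 in Cornish 5-week libraries. In the same order CP averaged 387.3, 6435 and 210.7 CPM.

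The metallothioneins MT4 and MT3, small zinc and copper buffers, were the genes of this list that reached the top 10 beside CP. MT4 was at 318, 907, 271, 45.4 and 76.4 CPM against 6.33, 17, 14.7, 13.3 and 13.2 CPM (log2 4.66 ± 0.77, adjusted p = 0.00639). MT3 was at 18.7, 92.6, 9.57, 1.11 and 2.26 CPM against 0.438, 0.684, 0.585, 0.22 and 1.08 CPM (log2 5.35 ± 1.15, adjusted p = 0.0147). Without Ogye replicate 2 these log2 differences were 3.78 and 3.71. The genes lie next to each other on chromosome 11 and are alike in sequence, so reads of 1 may have been counted for the other. ATP7B, the copper pump that loads ceruloplasmin, was at 119, 290, 142, 79.1 and 82.6 CPM against 28.5, 32.5, 27.3, 33.1 and 76.0 CPM, 3.62-fold higher (log2 1.86 ± 0.41, adjusted p = 0.0171).

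Most heterophil markers were called higher, and Ogye replicate 1 led several of them. Of 13 tested, 10 were higher (76.9%) and 1 was lower (7.69%), beside 6.79% and 6.75% of all tested genes. The median was 3.46. The higher count was 7 with a replicate block and 8 to 11 with 1 library left out. With the W-linked covariate AvBD7, LECT2, CATH1, CATH2, TGM3, AvBD1, CSF3R and MMP9 lost their call. Outside the list EPX and SERPINB10B lost it too, and S100A12 kept it. AvBD7, a beta-defensin of heterophil granules, was at 78.9, 12, 21.9, 14.9 and 5.61 CPM in the Ogye libraries and at 1.46, 1.5, 0.682, 0.397 and 2.07 CPM in the Cornish libraries. All Ogye libraries lay above all Cornish libraries, with a log2 difference of 4.45 ± 0.74 (adjusted p = 0.00653) and of 3.48 without Ogye replicate 1. LECT2, known in chicken as a granule protein of developing myeloid cells and in mammals as a liver-made chemotactic factor, was at 204, 19.5, 45.3, 34.3 and 11 CPM against 4.68, 6.16, 3.61, 0.882 and 5.02 CPM (log2 3.95 ± 0.81, adjusted p = 0.0126; 2.77 without Ogye replicate 1). It is also 1 of the 23 acute phase calls.

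S100A12, a calcium-binding protein that myeloid cells release, was at 62.7, 44.6, 29.0, 14.9 and 6.97 CPM against 0.97 to 2.02 CPM. Its difference was spread more evenly over the Ogye libraries (log2 4.35 ± 0.55, adjusted p = 0.00285), and it stayed between 3.95 and 4.61 with any 1 library left out. The serpin gene SERPINB10B was at 34.7, 29.0, 15.8, 7.95 and 3.71 CPM against 0.529 to 1.85 CPM (log2 3.82 ± 0.59, adjusted p = 0.0054). CATH1 and CATH2, antimicrobial cathelicidins, differed by 4.10 ± 0.91 and 3.51 ± 0.77 (adjusted p = 0.0168 and 0.016), and by 2.99 and 2.54 without Ogye replicate 1. CATH1 had no count in Cornish replicate 4, where 3 counts correspond to 0.132 CPM. EPX, a granule peroxidase known from mammalian eosinophils, differed by 4.45 ± 0.82 (adjusted p = 0.00899), or 3.25 without Ogye replicate 1, which held 19.9 CPM where the other Ogye libraries held 1.81 to 3.55. TGM3, a transglutaminase on the heterophil list, differed by 3.78 ± 0.74 (adjusted p = 0.0114), or 2.85 without that library. AvBD1 differed by 3.46 ± 0.82 (adjusted p = 0.0211), or 2.19 without it, and lost its call without Cornish replicate 3 or 4. The Cornish libraries held only 0.0882 to 0.556 CPM of EPX and 0.0975 to 0.641 CPM of TGM3. Values below the 3-count level of the library were those of EPX in Cornish replicates 1 and 4, TGM3 in replicate 3 and CATH1 in replicates 4 and 5. Defensins and cathelicidins are each clustered families of similar genes, and reads may be shared among their members.

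Markers of the granulocyte surface and matrix moved less. CSF3R, the receptor of the granulocyte growth factor G-CSF, was at 9.24, 14.4, 18.8, 7.14 and 7.60 CPM against 2.51 to 5.07 CPM (log2 1.76 ± 0.31, adjusted p = 0.00715). MMP9, a gelatinase of granulocytes, was at 1.27 to 3.71 against 0.264 to 1.03 CPM (log2 1.80 ± 0.38, adjusted p = 0.0136). PTX3, a soluble pentraxin, was the 1 member that was lower (log2 −1.92 ± 0.38, adjusted p = 0.0117). Summed over 19 heterophil genes of the table the level was 953, 959, 1202, 795 and 492 CPM in the Ogye libraries and 272, 497, 174, 280 and 426 CPM in the Cornish libraries, so Ogye replicate 5 fell just below Cornish replicate 2. In whole tissue, more cells of a type and more RNA per cell cannot be told apart. The part of blood cells in the acute phase result was not tested. By age and breed, AvBD7 gave 0.20 (adjusted p = 0.871) and 4.26 (adjusted p = 0.00194), while S100A12 gave 2.09 (adjusted p = 0.0228) and 2.27 (adjusted p = 0.0121). AvBD7 averaged 2.18 CPM in Ogye 5-week, 26.65 in Ogye 10-week and 1.22 in Cornish 5-week libraries. In the same order S100A12 averaged 4.545, 31.6 and 1.55 CPM.

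**Figure D4:**
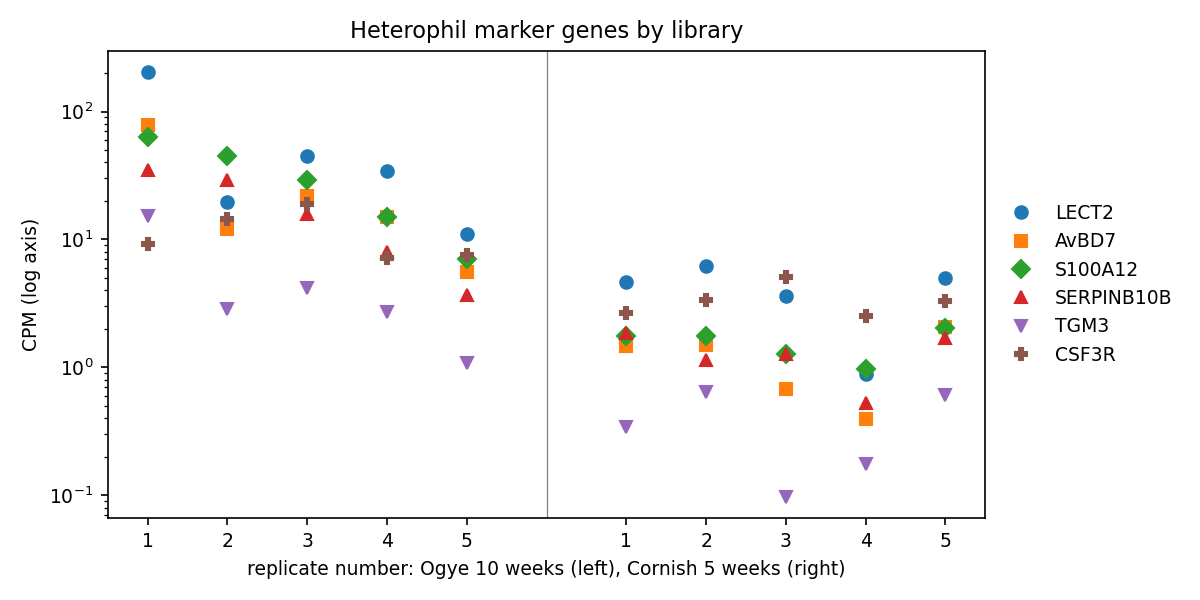
Level of 6 heterophil list and granulocyte genes in CPM on a log axis, for the 5 Ogye 10-week libraries on the left and the 5 Cornish 5-week libraries on the right. LECT2 reaches 204 CPM and AvBD7 78.9 CPM in Ogye replicate 1, and S100A12 lies at 6.97 to 62.7 CPM in the Ogye group against 0.97 to 2.02 CPM.

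Among other blood and vessel markers, T, NK and B cell markers had 1 higher and 3 lower of 24, which is 4.17% and 12.5% beside 6.79% and 6.75% of all tested genes. LCK, the kinase of the T cell receptor, was at 3.66 to 5.37 CPM against 8.03 to 11.5 CPM (log2 −1.03 ± 0.16, adjusted p = 0.0054), and CD5, a T cell surface protein, was 2.75-fold lower (log2 −1.46 ± 0.27, adjusted p = 0.00899). IL7R, the interleukin 7 receptor, was higher instead, at 40.1, 156, 70.9, 40.4 and 37.8 CPM against 11.5 to 22.8 CPM (log2 2.02 ± 0.41, adjusted p = 0.0124). Macrophage markers gave 1 lower call among 23. Of 13 erythroid and thrombocyte markers 4 (30.8%) were higher, and 2 to 5 with 1 library left out. Among them was F13A1, the A subunit of clotting factor XIII, at 24.8, 50.7, 43.1, 18.4 and 3.71 CPM against 1.80 to 3.19 CPM (log2 3.44 ± 0.56, adjusted p = 0.00585). F13A1 had an age difference of 0.29 (adjusted p = 0.723) and a breed difference of 3.16 (adjusted p = 0.0016). It averaged 2.20 CPM in Ogye 5-week, 28.1 in Ogye 10-week and 2.60 in Cornish 5-week libraries. Endothelial markers gave 2 higher calls among 22, with VWF, the von Willebrand factor, at 130 to 202 against 40.9 to 90.2 CPM (log2 1.26 ± 0.21, adjusted p = 0.00585). Stellate cell and matrix markers gave 2 higher and 2 lower of 32: FN1, fibronectin, was 2.04-fold higher (adjusted p = 0.009) and ELN, elastin, was 2.72-fold lower (adjusted p = 0.0163). Bile duct markers gave 1 lower call among 14.

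Clock genes were called in both directions. The activators ARNTL, CLOCK and NPAS2 switch on PER genes, whose products in turn inhibit them, and NFIL3 is a repressor that acts on clock outputs. Of 20 tested, 5 were higher (25%) and 3 lower (15%), beside 6.79% and 6.75% of all tested genes. Between the groups 8 did not overlap, where 13.6% of all tested genes did not. NPAS2 was at 12.6, 11.6, 14.1, 12.6 and 8.51 CPM in the Ogye libraries and at 2.83, 1.71, 0.926, 0.838 and 2.25 CPM in the Cornish libraries, 6.96-fold higher (log2 2.80 ± 0.32, adjusted p = 0.0016). NFIL3 was at 96.7, 154, 95.5, 99.0 and 85.0 CPM against 19.8 to 35.0 CPM (log2 1.89 ± 0.21, adjusted p = 0.00146). ARNTL was 2.15-fold higher (log2 1.10 ± 0.20, adjusted p = 0.00848). CLOCK was 1.37-fold higher (log2 0.45 ± 0.10, adjusted p = 0.0181) and lost its call without Cornish replicate 3 or 4, when 3 members of the list were called higher.

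PER3 ran the other way, at 12.3, 5.88, 4.93, 11.4 and 12.2 CPM in Ogye and 36.4, 32.2, 34.3, 31.4 and 25.1 CPM in Cornish libraries. The sets were clearly apart, with a log2 difference of −1.77 ± 0.25 (adjusted p = 0.004). PER3 differed by −1.39 with age in Cornish (adjusted p = 0.00371) and by −0.37 between breeds (adjusted p = 0.374). NPAS2 differed by 0.90 with age (adjusted p = 0.0484) and by 1.91 between breeds (adjusted p = 0.00115). Mean NPAS2 was 1.91 CPM in Ogye 5-week, 11.9 in Ogye 10-week and 1.71 in Cornish 5-week libraries. In the same order PER3 averaged 19.65, 9.34 and 31.9 CPM. The hour at which the livers were taken is not given in the sources used here.

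RASAL3, a Ras GTPase-activating protein known in mammals from blood cells, had the lowest adjusted p of the genes described here. Its level was 1.07, 0.777, 1.32, 0.704 and 0.724 CPM in Ogye replicates 1 to 5 and 26.5, 25.1, 27.8, 29.2 and 31.6 CPM in Cornish replicates 1 to 5. The spread within each group was small beside the difference of −4.89 ± 0.18 (adjusted p = 1.2e-07), 29.5-fold lower. It was between −5.07 and −4.80 with any 1 library left out. The difference lay along age, with −4.36 in Cornish (adjusted p = 4.2e-10), and the breed difference of −0.52 at 10 weeks missed the threshold (adjusted p = 0.124). Ogye libraries of 5 weeks averaged 20.6 CPM and Cornish libraries of 10 weeks 1.35 CPM. In GRCg7b the gene lies on chromosome 30, from 263713 to 278259.

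**Figure D5:**
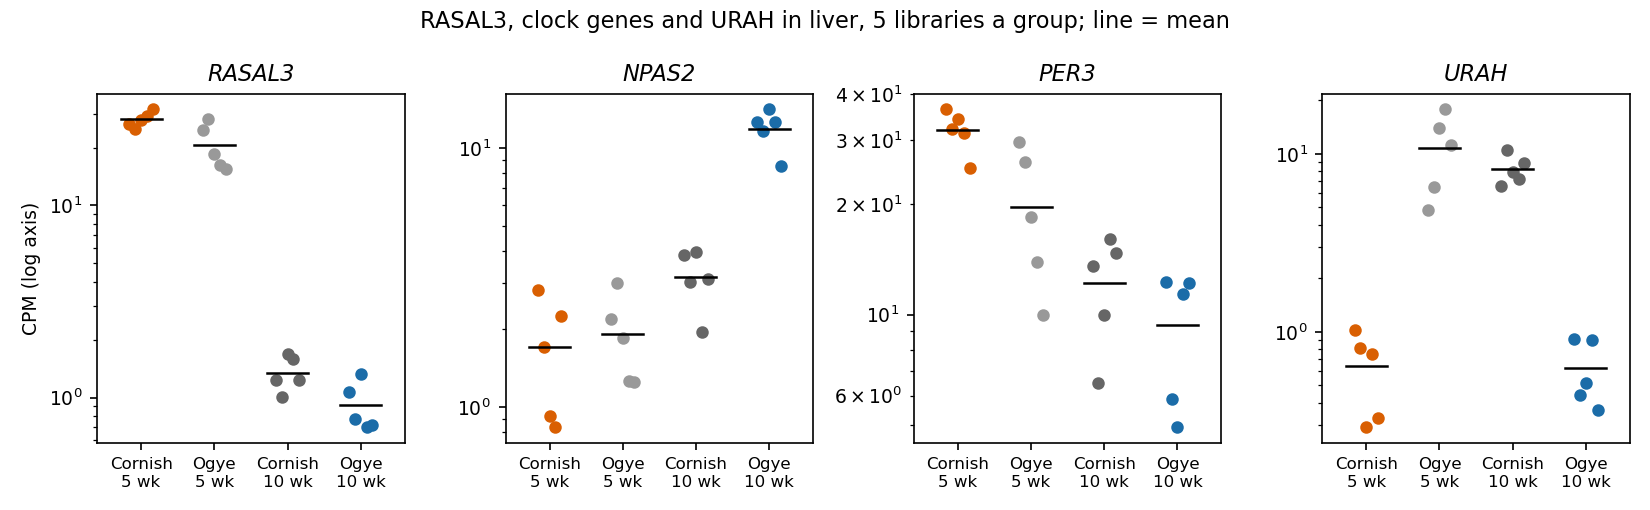
Level of RASAL3, NPAS2, PER3 and URAH in CPM on log axes, 1 dot a library in the 4 groups, with a line at the mean. RASAL3 is at 25.1 to 31.6 CPM in Cornish 5-week and 0.704 to 1.32 CPM in Ogye 10-week libraries. URAH is low in both of these groups and higher in the other two.

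The other genes at the low end were mostly of low abundance. SMOC1, a secreted calcium-binding matrix protein, was at 0.413, 0, 0.294, 1.01 and 2.17 CPM against 6.38 to 15.6 CPM (log2 −3.75 ± 0.61, adjusted p = 0.00585), and at −4.60 without Ogye replicate 5. PALM2AKAP2, an anchor of protein kinase A, was at 0 to 0.825 against 3.61 to 5.03 CPM (log2 −3.61 ± 0.48, adjusted p = 0.00324), and at −4.22 without Ogye replicate 1. Both genes had no count in Ogye replicate 2, where 3 counts correspond to 0.333 CPM. THSD7B, a thrombospondin-type protein, was lower by 2.68 on the log2 scale (adjusted p = 0.0153), and by 2.03 without Cornish replicate 5, which held 23.4 CPM where the other Cornish libraries held 4.54 to 8.18. For SMOC1, PALM2AKAP2 and THSD7B the age differences in Cornish were −4.05, −4.93 and −3.97 (adjusted p = 0.00101, 8.29e-05 and 0.000878), and their breed differences at 10 weeks of 0.30, 1.34 and 1.30 missed the threshold. THSD7B averaged 0.82 CPM in Ogye 5-week, 1.475 in Ogye 10-week and 9.59 in Cornish 5-week libraries. In the same order SMOC1 averaged 3.42, 0.777 and 10.56 CPM, and PALM2AKAP2 2.72, 0.346 and 4.42 CPM.

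POLD4, a small subunit of DNA polymerase delta, was at 0.111 to 0.662 CPM against 2.30 to 3.51 CPM (log2 −2.77 ± 0.34, adjusted p = 0.00242). EXOSC6, a subunit of the RNA exosome, was at 0.0825, 0.222, 0.147, 0 and 0.181 CPM against 0.585 to 1.41 CPM (log2 −3.06 ± 0.50, adjusted p = 0.00585). RPP25, a protein of ribonuclease P, was at 0.0825, 0, 0.221, 0.201 and 0.453 CPM against 0.898 to 2.34 CPM (log2 −2.97 ± 0.55, adjusted p = 0.00899). In the Ogye libraries 3 counts correspond to 0.221 to 0.333 CPM. Every Ogye value of EXOSC6 was below the 3-count level of its library, as were those of RPP25 in replicates 1, 2 and 4. On the high end, the adhesion protein gene NCAM1 was at 41.4, 137, 24.2, 7.44 and 12.9 CPM against 1.22 to 5.07 CPM (log2 3.97 ± 0.78, adjusted p = 0.0114; 2.92 without Ogye replicate 2). EDN1, the vasoconstrictor endothelin 1, was the 1 called gene of 5 tested on the pigmentation list, beside 13.5% of all tested genes. It was at 0.996 to 7.10 CPM against 0.257 to 0.441 CPM (log2 2.80 ± 0.59, adjusted p = 0.0136). The EDN1 difference was 1.90 without Ogye replicate 2, and the call was lost with the W-linked covariate. EDN3, the endothelin tied to dark skin in this breed, had too few counts to be tested, as had APOV1, a lipoprotein gene of laying hens.

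Lists of lipid and sugar metabolism had shares of called members near or below the 13.5% of all tested genes. Fatty acid synthesis had 1 higher and 1 lower of 17, fatty acid oxidation and ketogenesis 1 and 1 of 31, glucose and glycogen 3 and 2 of 42, cholesterol synthesis 1 lower of 21, and bile acid synthesis and transport none of 17 by edgeR. Of these 17, 5 passed an unadjusted p under 0.05, and DESeq2 called 3 and limma-voom 4. By edgeR with 1 library left out, up to 2 of them were called higher and up to 1 lower. Several of these small counts moved with the libraries used. Fatty acid oxidation had 6 lower calls without Ogye replicate 5, glucose and glycogen had 1 higher call without Ogye replicate 1 or Cornish replicate 4 or 5 and lost all 3 without Ogye replicate 3, and cholesterol synthesis had 4 lower calls with a replicate block. ACSS2, which makes acetyl-CoA from acetate in the cytosol, was at 409, 785, 527, 253 and 262 CPM in the Ogye libraries and at 70.7, 53.3, 57.0, 58.9 and 78.4 CPM in the Cornish libraries. It was 7.05-fold higher without overlap (log2 2.82 ± 0.32, adjusted p = 0.0015), with nearly equal parts of 1.39 with age (adjusted p = 0.0128) and 1.44 between breeds (adjusted p = 0.0123). ACSS2 averaged 64.6 CPM in Ogye 5-week, 447 in Ogye 10-week and 63.7 in Cornish 5-week libraries. FASN, the fatty acid synthase, was at 8867, 1630, 5968, 10515 and 17111 CPM against 5969, 4062, 10525, 11495 and 8952 CPM. The Ogye libraries enclosed the Cornish range (log2 0.11 ± 0.51, adjusted p = 0.907), and its sign changed with the setting. SCD, the stearoyl-CoA desaturase, was at 340 to 8809 against 3136 to 8256 CPM (log2 −0.20 ± 0.60, adjusted p = 0.848).

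MID1IP1, which activates acetyl-CoA carboxylase, was lower, at 2.97 to 5.73 against 7.04 to 24.9 CPM (log2 −1.80 ± 0.33, adjusted p = 0.00848). THRSPB, of the same small family as the lipogenic factor THRSP, was at 1.65, 0.111, 5.22, 4.53 and 10.5 CPM against 25.1 to 106 CPM (log2 −3.61 ± 0.69, adjusted p = 0.0101; −4.20 without Ogye replicate 5). THRSP itself, its neighbour on chromosome 1, was at 1536, 43.2, 1148, 2167 and 4151 CPM against 1848 to 3786 CPM (log2 −0.67 ± 0.74, adjusted p = 0.564), and reads of the 2 similar genes may be shared. CPT1A, the entry step of mitochondrial fatty acid oxidation, was at 48.9, 26.8, 47.1, 39.5 and 36.1 CPM against 106, 138, 60, 116 and 125 CPM. It was 2.73-fold lower (log2 −1.45 ± 0.23, adjusted p = 0.0054), with 0.63 for age in Cornish (adjusted p = 0.146) and −2.07 for breed at 10 weeks (adjusted p = 0.00105). CPT1A averaged 332.7 CPM in Ogye 5-week, 39.7 in Ogye 10-week and 108.8 in Cornish 5-week libraries. PCK1, the cytosolic step of glucose synthesis, was at 24.3, 0.111, 2.80, 55.2 and 25.1 CPM against 55.4 to 213 CPM, just short of overlap. It missed the threshold (log2 −2.59 ± 0.87, adjusted p = 0.0713) and passed it without Ogye replicate 4, with limma-voom, and in fits of 15 and 17 libraries. CYP7A1, which sets the pace of bile acid production, was at 32.5 to 293 against 40.6 to 177 CPM (log2 0.66 ± 0.50, adjusted p = 0.393).

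Amino acid breakdown had 4 higher and 2 lower of 49, which is 8.16% and 4.08% beside 6.79% and 6.75% of all tested genes. AUH, an enzyme of leucine breakdown, was at 57.1 to 87.1 against 23.5 to 41.7 CPM (log2 1.14 ± 0.17, adjusted p = 0.00482), and DBT, part of the branched-chain ketoacid dehydrogenase, was 1.54-fold higher (log2 0.62 ± 0.13, adjusted p = 0.0121). GLUL, glutamine synthetase, was 3.22-fold lower (log2 −1.69 ± 0.44, adjusted p = 0.0286) with overlap at 79.6 to 354 against 329 to 1143 CPM, and its call was lost without any 1 of Cornish replicates 3, 4 and 5 or Ogye replicate 1. Insulin signalling had 2 higher of 26, which is 7.69% beside 6.79% of all tested genes. One was PDPK1, a kinase that activates AKT, at 31.9, 72.3, 36.3, 31.3 and 27.0 CPM against 21.1, 19.5, 20.6, 20.4 and 25.5 CPM (log2 0.90 ± 0.25, adjusted p = 0.036). The groups did not overlap, but its call was lost without any 1 of the Cornish libraries or Ogye replicates 1 and 3, and its log2 difference was 0.56 without Ogye replicate 2. Thyroid hormone genes gave no call by edgeR on the 10 libraries among 14, of which 3 passed an unadjusted p under 0.05. DESeq2 and limma-voom called 1 each. By edgeR a fit of all 20 libraries called 1 lower, and up to 1 was called in each direction with 1 library left out.

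URAH and SULT1B1 stood out by what the other groups did. URAH, which acts in uric acid breakdown, was at 0.908, 0.444, 0.515, 0.905 and 0.362 CPM in Ogye 10-week and at 1.02, 0.812, 0.292, 0.749 and 0.329 CPM in Cornish 5-week libraries. The values overlapped fully (log2 −0.03 ± 0.43, adjusted p = 0.972). Cornish 10-week libraries averaged 8.24 ± 1.5 CPM and Ogye 5-week libraries 10.9 ± 5.29 CPM (SD, n = 5 each). The age difference in Cornish of 3.67 (adjusted p = 1.46e-05) and the breed difference at 10 weeks of −3.68 (adjusted p = 7.52e-05) thus cancelled in the comparison. SULT1B1, a sulfotransferase of thyroid hormones and phenols, was at 17, 5.88, 2.43, 14.8 and 15.5 CPM against 2.63 to 5.26 CPM (log2 1.33 ± 0.44, adjusted p = 0.0687), beside means of 61.5 ± 13.6 CPM in Cornish 10-week and 57.4 ± 13.9 CPM in Ogye 5-week libraries. It was called higher with DESeq2, without Ogye replicate 3, and in fits of 15, 17 and 20 libraries.

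Antioxidant enzymes had 2 higher and 4 lower of 30, which is 6.67% and 13.3% beside 6.79% and 6.75% of all tested genes. GCLC, which limits glutathione synthesis, was at 66.4, 50.9, 49.2, 89.7 and 89.4 CPM against 135, 140, 135, 140 and 153 CPM (log2 −1.02 ± 0.18, adjusted p = 0.00731). PRDX1, a peroxiredoxin, was 1.63-fold lower (log2 −0.71 ± 0.13, adjusted p = 0.00941), TXN, thioredoxin, 1.51-fold lower (log2 −0.60 ± 0.13, adjusted p = 0.0147), and SRXN1, which repairs peroxiredoxins, 1.57-fold lower (log2 −0.65 ± 0.14, adjusted p = 0.0166). None of these 4 overlapped between the groups. The 2 higher genes did overlap. SOD3, the extracellular superoxide dismutase, was at 35.7, 242, 55.0, 7.54 and 7.60 CPM against 4.63 to 7.60 CPM (log2 3.51 ± 0.88, adjusted p = 0.0257; 2.11 without Ogye replicate 2), and its call was lost without any 1 of Cornish replicates 2 to 5. GPX3, the plasma glutathione peroxidase, differed by 1.10 ± 0.32 (adjusted p = 0.0431). Neither was called without Cornish replicate 3, 4 or 5. Genes of xenobiotic metabolism had 3 higher (7.32%) and 1 lower (2.44%) of 41. CYP2W1, a cytochrome P450, was at 373 to 649 against 147 to 253 CPM (log2 1.38 ± 0.22, adjusted p = 0.0054), and ABCG2, an exporter of urate and drugs, was 1.61-fold higher (log2 0.69 ± 0.14, adjusted p = 0.0116). CYP1A1, the classic target of the aryl hydrocarbon receptor, was 5.52-fold lower (log2 −2.47 ± 0.59, adjusted p = 0.0217), at −3.35 without Ogye replicate 4, and not called without Cornish replicate 4 or Ogye replicate 1 or 3.

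Folding genes of the endoplasmic reticulum were higher where they were called. Of 45 heat shock and ER folding genes, 9 (20%) were higher and none lower by edgeR, beside 6.79% and 6.75% of all tested genes. The median was 0.41, and 2 genes were lower at an unadjusted p under 0.05. DNAJB9, a chaperone of the unfolded protein response, was at 62.9, 110, 54.2, 53.7 and 60.7 CPM against 27.4 to 35.2 CPM (log2 1.15 ± 0.20, adjusted p = 0.00675). SEL1L, which serves the breakdown of misfolded proteins, was at 140, 226, 171, 124 and 103 CPM against 59.7 to 85.0 CPM (log2 1.06 ± 0.20, adjusted p = 0.0101). EIF2AK3, the stress sensor PERK, was 1.72-fold higher (log2 0.79 ± 0.16, adjusted p = 0.0114), and BAG3, a cochaperone of HSP70, was 2.16-fold higher (log2 1.11 ± 0.26, adjusted p = 0.0208). Ogye replicate 2 held the highest value of all 4 genes. The count of 9 was 4 without Cornish replicate 2, 5 without Cornish replicate 1, 4 or 5 or Ogye replicate 1 or 3, and 6 without Ogye replicate 2.

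Called ribosomal and nuclear respiratory chain genes were lower, and most members were not called. Of 65 cytosolic ribosomal protein genes 14 (21.5%) were lower and none higher by edgeR, beside 6.75% and 6.79% of all tested genes. Their median was −0.25, and DESeq2 and limma-voom called 20 and 24 lower and 1 higher each. RPLP1, a stalk protein of the large subunit, was at 156, 175, 216, 202 and 270 CPM against 327, 394, 390, 416 and 348 CPM (log2 −0.88 ± 0.16, adjusted p = 0.00888). RPL37 and RPS28 were lower by 0.56 and 0.90 on the log2 scale (adjusted p = 0.0129 and 0.014). Of 56 nuclear respiratory chain genes 13 (23.2%) were lower and none higher by edgeR, beside the same shares of all tested genes. Their median was −0.28, and DESeq2 and limma-voom called 19 and 26 lower and 1 higher each. NDUFA13, a subunit of complex I, was at 18.8, 22.1, 27.7, 39.8 and 43.8 CPM against 58.5 to 68.6 CPM (log2 −1.07 ± 0.21, adjusted p = 0.0116), and NDUFS4 was 1.46-fold lower (log2 −0.54 ± 0.11, adjusted p = 0.0107). Of 13 genes of mitochondrial DNA 4 (30.8%) were higher and none lower, beside 6.79% and 6.75% of all tested genes. ND4L was at 554 to 802 against 243 to 383 CPM (log2 1.14 ± 0.18, adjusted p = 0.0054). Short reads of these genes may be shared with similar sequences elsewhere in the genome, which was not tested.

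These counts moved with single libraries and with the fit, and a fit of all 20 libraries called 1 ribosomal and 1 respiratory gene lower. Without Ogye replicate 5 the ribosomal and respiratory counts were 22 and 25, and without Ogye replicate 3 both were 4. Respiratory counts of 4 to 6 were also found without Ogye replicate 1 or Cornish replicate 2, 3, 4 or 5, and 8 without Ogye replicate 2. Ribosomal counts were 5 without Ogye replicate 1 or Cornish replicate 4, 6 without Cornish replicate 3, and 9 without Cornish replicate 2 or Ogye replicate 4. The mitochondrial count was 1 without Cornish replicate 3 or 4 or Ogye replicate 1, and 2 without Cornish replicate 1 or 5 or Ogye replicate 2, 4 or 5. Gene length moved with the comparison. Among the shortest of 5 equal bins of genes by chromosome span (median 3.62 kb) 3.23% were higher and 16.3% lower with a median of −0.28, and among the longest (median 90.1 kb) 10.1% were higher and 2.09% lower with a median of 0.10. Spearman correlations of gene level with span, relative to the gene's median over the 10 libraries, were 0.011 to 0.329 in the Ogye libraries and −0.287 to −0.061 in the Cornish libraries. Most ribosomal protein genes are short, and the part of length in these results was not tested.

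The medians of interferon and cell cycle genes moved with Cornish replicate 1. Of 36 interferon response genes 6 (16.7%) were lower by edgeR, beside 6.75% of all tested genes. None was higher (1 higher at an unadjusted p under 0.05), beside 6.79% of all tested genes. DESeq2 called 14 lower and 1 higher, limma-voom 5 lower, and edgeR with a replicate block 10 lower. The median was −0.89, or −0.33 without that library, which left 6 calls. OASL, an antiviral oligoadenylate synthetase-like protein, was at 26.9, 8.32, 11.5, 13.4 and 8.69 CPM against 271, 79.5, 54.1, 24.0 and 64.4 CPM (log2 −2.83 ± 0.61, adjusted p = 0.0153; −2.0 without Cornish replicate 1). IFI6, an interferon-induced mitochondrial protein, was at 63.1, 5.21, 9.57, 29.3 and 20.7 CPM against 719, 323, 127, 29.1 and 193 CPM (log2 −3.44 ± 0.85, adjusted p = 0.0251). The IFI6 value was −2.70 without Cornish replicate 1 and −4.10 without Ogye replicate 1, and its call was lost without Ogye replicate 3. The count of 6 was 1 without Ogye replicate 3, 9 without Cornish replicate 4, and 0 by edgeR in a fit of all 20 libraries, where 12 passed an unadjusted p under 0.05. Cell cycle genes had a median of −1.52 over 46 tested, and a median of 0.04 without Cornish replicate 1. None was called by edgeR on the 10 libraries, and 16 were lower at an unadjusted p under 0.05. DESeq2 called 3 lower and limma-voom 1 higher. By edgeR a fit of all 20 libraries called 3 lower, and up to 1 was called in each direction with 1 library left out. TOP2A, the topoisomerase of dividing cells, was at 85.4 CPM in that library and at 3 to 6.76 CPM in the other Cornish libraries, beside 3.26 to 6.52 CPM in the Ogye libraries.

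The opposite pairing of breed and age, Cornish at 10 weeks against Ogye at 5 weeks, shares no library with this comparison and has the same order of ages. It called 1941 of 10379 genes (18.7%). Of 10250 genes tested in both, 1390 were called here, and 1222 of these (87.9%) had the same sign there, beside 69.4% of all genes. Called in both were 567 genes, 40.8% of the calls here and 29.4% of the calls there, and 560 of them had the same sign. Across the 10250 genes the log2 differences had a Pearson correlation of 0.466, as a description over genes that are not independent. RASAL3 was −3.92 there and −4.89 here, and NFIL3 was 1.81 there and 1.89 here. By contrast IGFBP2 was −1.02 there and −3.69 here, CP was 1.15 and 4.94, and LECT2 was −0.39 and 3.95. Without replicates 3, 4 and 5 of the Ogye 5-week group, that comparison called 16 genes, of which 10 were called here as well. Of the genes called here, 86.4% then had the same sign there, beside 66.2% of all genes.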

How the data were processed

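Per the labels' protocols, liver RNA was prepared with an RNeasy kit and a stranded TruSeq total RNA kit with Ribo-Zero Globin. Per the submitters' processing notes, FastQC, MultiQC, STAR and featureCounts were used with the build GRCg7b; the sources used here name no version, strand setting or assembler. The deposited values are raw read counts, 1 table for 20 libraries. Overlapping and antisense genes may share reads.

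Named genes were kept (assembled entries and 9 entries without a gene name left out), filtered with filterByExpr, scaled by TMM and tested with edgeR 4.0.16 (robust quasi-likelihood, R 4.3.3) on the 10 libraries, with Benjamini-Hochberg adjustment over 10410 genes. The fit was tested on simulated data. CPM values are counts per 1000000 named counts with TMM scaling over 20 libraries, so they differ from shares of the total. SE is the log2 difference over the square root of F. SE and SD include the spread between libraries, while the 3 counts that a count of 0 allows cover counting error only. Positions and spans come from RefSeq for the same build, matched for 12769 symbols. Age and breed differences come from 1 fit of 15 libraries.

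Alternatives were DESeq2 1.42.0, limma-voom 3.58.1, other scalings, filters and sample sets, and each library left out. Genes were named by rule: the 10 highest and 10 lowest called, non-overlapping genes with at least 1 CPM in the higher group and an informative symbol, up to 5 called members a list by adjusted p, and 13 chosen genes. SAA, SOCS3, ORM1, C3, ALB, AHSG, TTR, ATP7B, MMP9, CATH2, AvBD1, GPX3 and TOP2A are outside it, picked with their values in view. The members and lists were chosen with earlier results of these data known. Some genes that the rule names are not reported here.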

Additional observations from a re-analysis of the deposited data

Results flagged for a closer look

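Each of 97 genes and 6 library measures was checked in both groups for a library far from the other 4 of its group. This gave 28 cases among 206 checks (13.6%). The cutoff is passed about 1 time in 20 by chance for normally distributed values, but the CPM values were not transformed and need not be normal. Many of the 97 genes were also chosen for large differences, so the share is not read against that rate. Over all 10410 tested genes Cornish replicate 1 was the distant library for 897 and Ogye replicate 2 for 495, and each of the other libraries for 46 to 124.

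Ogye replicate 1 was far from its group for AvBD7 (78.9 CPM), EPX (19.9 CPM), CATH1 (13.7 CPM), LECT2 (204 CPM), TGM3 (15.2 CPM), CATH2 (18.9 CPM), AvBD1 (47.1 CPM), OASL (26.9 CPM) and IGFBP2 (2.39 CPM). Of these 9 genes 7 encode products of the heterophil list or of granules. Such genes were often picked for large differences, and CATH2 and AvBD1 were picked with their values in view. The share of such genes among those checked was not computed, so the 7 of 9 is not read as a concentration in this library. Over all tested genes Ogye replicate 1 was the distant library for 64 of 10410. Ogye replicate 2 was far above its group for MT3 (92.6 CPM), NCAM1 (137 CPM), IL7R (156 CPM), NFIL3 (154 CPM), DNAJB9 (110 CPM), IGF2 (82.5 CPM), PDPK1 (72.3 CPM), SOD3 (242 CPM) and EDN1 (7.10 CPM). Ogye replicate 4 was far from its group for VWF (202 CPM), CYP1A1 (11.3 CPM) and BAG3 (19.5 CPM, below the others). In the Cornish group, replicate 1 was far above the others for TOP2A (85.4 CPM) and OASL (271 CPM), replicate 5 for ATP7B (76.0 CPM), GCLC (153 CPM), PDPK1 (25.5 CPM) and THSD7B (23.4 CPM), and replicate 4 for SOCS3 (10.4 CPM). The causes were not tested.

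One entry without a gene name, outside the genes compared above, held 9045 to 14382 counts in the Cornish 5-week libraries and 65 to 171 counts in the Ogye 10-week libraries. Its log2 difference was −5.60 ± 0.31 (edgeR's quasi-likelihood test on all entries, adjusted p = 7.19e-06). It was at 5168 to 10228 counts in Ogye 5-week and 62 to 103 counts in Cornish 10-week libraries. The table does not say what it is.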

How the results depend on the processing

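The count of 1410 called genes (707 higher, 703 lower) became 2217 (1162 and 1055) with DESeq2, 2283 (1076 and 1207) with limma-voom, 2396 (1257 and 1139) in a fit of 17 libraries, 2251 (1178 and 1073) in a fit of 15 libraries chosen after seeing the data, and 439 (148 and 291) with the W-linked covariate, which is partly aligned with the groups. A fit of all 20 libraries called 968 genes (549 higher, 419 lower), and 813 of them were among the 1410. With 1 library left out the counts ran from 756 to 1783, from 385 to 872 higher and from 371 to 911 lower. Same-numbered libraries of the 2 groups had correlations of −0.081 to 0.287 and 2 of 5 matched best with their own number, so the numbers were not taken to pair them. With a replicate block, 937 genes were called (432 higher, 505 lower), and 830 of them were among the 1410. Cornish 10 weeks against Ogye 5 weeks gave 3594 calls with all 20 libraries, 16 without 3 Ogye libraries, 3 with the block, and 2 to 4185 with 1 library left out. Cornish 10 against 5 weeks gave 787 with all 20 libraries and 1252 to 2533 with 1 left out, and Ogye against Cornish at 10 weeks gave 818 and 1117 to 2187. The difference in ALB share ran from −8.14 to −4.38 percentage points with 1 library left out. Of 124 named and called genes, 82 kept their call with every library left out and 33 under every setting, and 132 of 910 list counts moved by over 1.5 times. The sign changed for genes that were not called: IGF2 (0.29 with the W-linked covariate), SCD (0.045 with it, −0.49 to 0.10 with 1 library left out), FASN (−0.095 with limma-voom, −0.14 with the block, −0.28 to 0.37 with 1 left out), URAH (0.37 with limma-voom, 0.027 with the block, −0.21 to 0.19 with 1 left out) and TOP2A (0.019 with limma-voom, −2.43 to 0.029 with 1 left out). The causes were not tested. Depth limits genes near 3 counts, 0.128 to 0.333 CPM.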
